A study of Homo sapiens with 3 samples.

Results

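The MAP kinase phosphatases and Sprouty feedback genes described here are DUSP1, DUSP4, DUSP5, DUSP6, DUSP8, DUSP10, DUSP16, SPRY2, SPRY4 and SPRED1. They were chosen by gene symbol, and all 10 were found among the 58735 genes of the expression table. RNA-seq had been done on H660, a line of human prostate cancer cells with neuroendocrine features that the labels call parental. The cells had been given either the vehicle DMSO, JG231 at 2.5 μM or JG231 at 5 μM for 24 h, and each condition was represented by 1 library. JG231 inhibits the chaperone HSP70 by an allosteric mechanism and is known here only by its code name. Without replicates there was no SD and no p-value for any gene, and the doses shared their only control library, so their changes are given side by side. Levels are in FPKM, the fragments of a gene scaled both to its transcript length and to the total of mapped fragments. The steps between low FPKM values gave about 16.1 M fragments for DMSO, 20.4 M for 2.5 μM and 24.1 M for 5 μM.

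The label of the cells was checked against marker genes. All 7 neuroendocrine markers examined were above 1 FPKM in DMSO, led by SCG3 at 64.5 FPKM, and their summed level was 205 FPKM with DMSO, 125 with 2.5 μM and 110.1 with 5 μM JG231. Of the 4 luminal prostate markers examined, 0 were above 1 FPKM in DMSO, KLK2 was listed at 0 in every library, and the most abundant, TMPRSS2, was at 0.32 FPKM in DMSO. Their summed level was 0.45, 0.51 and 0.12 FPKM in the same order. The cell type term of the labels is prostatic adenocarcinoma, and the libraries showed neuroendocrine markers without the luminal ones. The 5 fibroblast markers summed to 0.84 FPKM with DMSO, 1.05 with 2.5 μM and 1.54 with 5 μM JG231, with COL1A1 the most abundant and DCN at 0. The 5 leukocyte markers summed to 1.37, 0.23 and 0.95 FPKM in the same order, with CD14 the most abundant and PTPRC, CD3E and MS4A1 at 0. The 3 endothelial markers summed to 5.13, 0.74 and 0.58 FPKM, most of it CDH5, while PECAM1 was at 0. All of these sums differed between the libraries, and their part in the results was not tested. In a bulk sample, fewer cells of a kind and less RNA per cell cannot be told apart.

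MAP kinases pass signals from receptors and from stress to the nucleus, and they are active only while phosphorylated on both a threonine and a tyrosine. MAP kinase phosphatases are dual-specificity enzymes that remove both phosphates, and many are transcribed in response to the same kinases that they switch off, which makes them feedback inhibitors. They differ in place and substrate, with inducible nuclear enzymes, cytoplasmic enzymes selective for ERK, and enzymes that prefer the stress kinases JNK and p38. Sprouty and SPRED proteins act further upstream, where they limit the passage of the signal from receptor tyrosine kinases through RAS and RAF to ERK.

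Of the 10 genes, 9 were higher in both JG231 libraries than in DMSO, and the remaining gene, SPRED1, was near 0 throughout. Changes are log2 ratios of FPKM with a pseudocount of 0.1 added, a scale that understates the change of low genes. A gene was called changed when it had over 1 FPKM in either library compared and a log2 change beyond 0.25. The methods of the study use these limits but do not say in which library the level was read, and they also keep genes that go to or from 0. That clause was not used here, and it bears on SPRED1 and its relative SPRY3, which were listed at 0 with JG231. By this rule 9 of the 9 genes that could be called rose at 2.5 μM, beside 36.4% of 15746 tested genes that were higher and 43.4% that were lower. The count at 5 μM was also 9 of 9, beside 36.5% of 15765 tested genes that were higher and 45.1% that were lower. At a 2-fold threshold, a log2 change of 1, DUSP1, DUSP5, DUSP8, DUSP10, SPRY2 and SPRY4 rose at 2.5 μM, where 12.9% of all genes were higher and 21.7% lower. DUSP6 joined these 6 genes at 5 μM, against 14.7% of all genes higher and 24.3% lower. DUSP5, SPRY2 and SPRY4 were under 1 FPKM in DMSO and passed the filter only through the JG231 libraries, so they could be counted only as higher. Among genes above 1 FPKM in DMSO, a filter chosen after seeing the data, 3 of 6 rose at least 2-fold at 2.5 μM against 8.53% of 14769 genes, and 4 of 6 at 5 μM against 10.2%. Higher genes made up 45.6% of the genes called by the 0.25 rule at 2.5 μM and 44.7% at 5 μM, and these shares were 30.8% and 27.9% when libraries were rescaled to an equal sum without mitochondrial and small RNA genes. Shares of 64.8% and 64.1% were obtained with a mean of at least 5 FPKM as the filter. That rescaling moved the median change of all genes by -0.30 at 2.5 μM and by -0.40 at 5 μM, and after it 6 of the 8 genes that passed the filter were called higher by the 0.25 rule at 2.5 μM, beside 24.8% of all genes, and 8 of 9 at 5 μM, beside 23.1%. The calls of DUSP6 and DUSP16 at 2.5 μM and of DUSP16 at 5 μM were lost because the change fell within 0.25. SPRY2 at 2.5 μM kept a log2 change of 1.09 and was lost only because its level went under 1 FPKM.

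**Figure D1:**
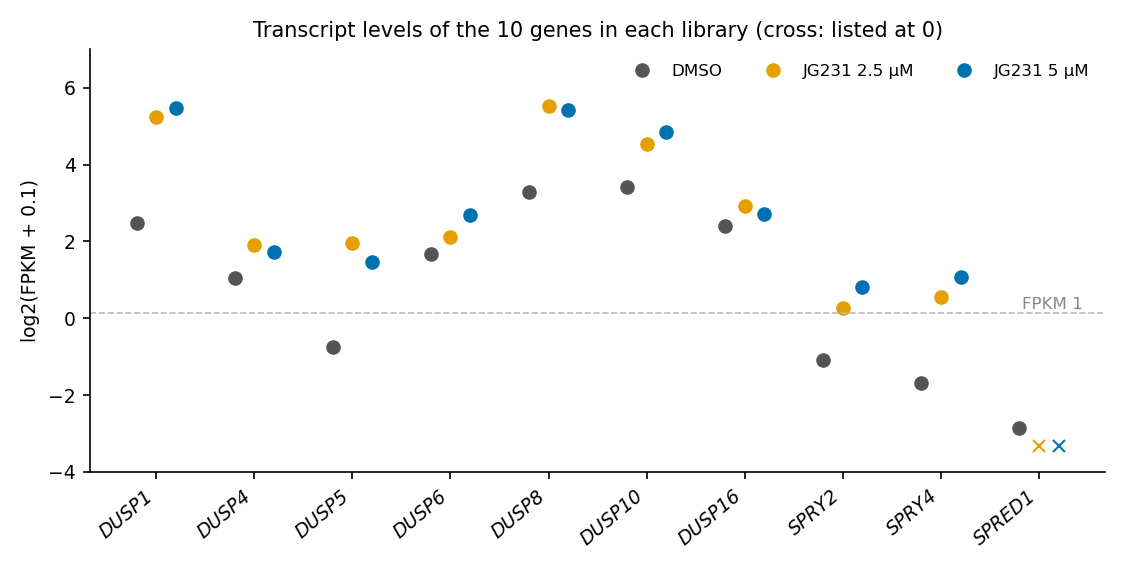
Level of each of the 10 genes in the DMSO library (grey), the 2.5 μM JG231 library (orange) and the 5 μM JG231 library (blue), as log2 of FPKM plus 0.1, with 1 library per condition and a cross where a gene was listed at 0. Both JG231 points lie above the DMSO point for every gene but SPRED1, and DUSP5, SPRY2 and SPRY4 cross the dashed line at 1 FPKM.

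DUSP1, DUSP8 and DUSP10 were the most abundant of these genes at both doses, and their promoter sequences are shown for that reason. Each is the 250 bases before the gene's start in RefSeq on GRCh38.p14, read 5′ to 3′ on the minus strand, on which all of them are transcribed. The window of DUSP10 is chr1:221742090-221742339, that of DUSP1 chr5:172771196-172771445 and that of DUSP8 chr11:1572272-1572521. None overlaps an exon annotated in GENCODE release 44, although the DUSP1 window lies in an antisense lncRNA gene, ENSG00000253736, and the DUSP8 window in the antisense gene KRTAP5-AS1. Capitals mark the cAMP response element TGACGTCA and its shorter core TGACG, searched on both strands.

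DUSP1: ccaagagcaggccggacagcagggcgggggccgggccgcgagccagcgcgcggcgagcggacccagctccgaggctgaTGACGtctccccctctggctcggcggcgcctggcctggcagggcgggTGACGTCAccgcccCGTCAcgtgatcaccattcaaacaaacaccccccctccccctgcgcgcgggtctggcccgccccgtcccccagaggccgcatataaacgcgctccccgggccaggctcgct
DUSP8: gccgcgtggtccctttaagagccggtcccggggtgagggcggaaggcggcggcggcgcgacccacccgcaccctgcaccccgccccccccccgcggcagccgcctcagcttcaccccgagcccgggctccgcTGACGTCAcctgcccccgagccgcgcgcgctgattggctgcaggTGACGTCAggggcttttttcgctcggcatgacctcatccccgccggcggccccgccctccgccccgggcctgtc
DUSP10: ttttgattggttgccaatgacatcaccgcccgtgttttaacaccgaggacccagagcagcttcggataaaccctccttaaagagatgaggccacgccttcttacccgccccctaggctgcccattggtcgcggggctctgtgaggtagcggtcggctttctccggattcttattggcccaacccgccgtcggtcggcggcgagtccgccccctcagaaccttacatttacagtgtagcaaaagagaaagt

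DUSP1 held 1 full element, which begins 125 bases before the start, and DUSP8 held 2, beginning 118 and 74 bases before it. Of 35116 RefSeq windows of the same length, 1.65% held TGACGTCA. Windows were found for 8 of the 10 genes, 11 windows in all because some genes have several starts, and DUSP1 and DUSP8 were the genes with the full element. Every full element contains the core TGACG on both strands, and DUSP1 had the core at 2 further places, the later of which overlaps the E-box letters CACGTG. The core was also in a window of SPRY2 and in that of SPRY4, and it was in 21.2% of all windows. The E-box CACGTG, in 6.34% of all windows, was found in DUSP1 and in no other of these genes. The AP-1 letters TGANTCA (6.57% of all windows), the amino acid response letters TGATGNAAN (3.13%), the heat shock letters GAANNTTC (5.78%) and the CArG box (1.16%) were in none of the 11 windows. A match is a description of letters, not a bound site or a cause, and the motifs were chosen after the values were seen. Among genes with a window that passed the filter at 5 μM, 63 of 347 with TGACGTCA (18.2%) were at least 2-fold higher, beside 12.6% of all 9852. At 2.5 μM these shares were 12.5% of 344 and 10.8% of 9821, and the differences were not tested.

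The order of levels among the 10 genes differed between DMSO and JG231. As a rough measure of scatter in place of a replicate error, the robust SD of the log2 difference between the JG231 libraries was used. It was taken over the 500 genes nearest in expression, among those over 1 FPKM in some library. It holds any effect of dose, and it is not the error of a DMSO value or of a difference between genes within a library. Distances between genes are set beside it as a description only. In DMSO the order ran from DUSP10 through DUSP8, DUSP1, DUSP16, DUSP6 and DUSP4 to DUSP5, SPRY2, SPRY4 and SPRED1. DUSP10 and DUSP8 differed by 0.14 on the log2 scale, less than the scatter of 0.32, and so did DUSP1 and DUSP16, by 0.08 against 0.44. DUSP6 and DUSP4 were 0.65 apart against 0.74, so their order in DMSO was not resolved by it either. DUSP4 and DUSP5 were 1.97 apart, and DUSP5 and SPRY2 0.44, each against 2.27. The 2.27 belongs to the level of DUSP5, 0.50 FPKM, where a gene was used only if over 1 FPKM in some library. It is thus no usable error, and it does not decide the order of these genes. About 229 fragments lay behind DUSP4 in DMSO and about 20.4 behind DUSP5. For SPRY2, SPRY4 and SPRED1 in DMSO the scatter came out at 0, which is no usable error, and their order is given without one. At 2.5 μM DUSP8 was first, above DUSP1 by 0.31 against a scatter of 0.24, and DUSP10 followed 0.70 below DUSP1. At 5 μM DUSP1 and DUSP8 were close, 0.05 apart against a scatter of 0.23, and DUSP10 lay 0.58 below DUSP8. DUSP16, close to DUSP1 in DMSO, lay 2.15 below DUSP10 at 5 μM, against a scatter of 0.39. SPRY4 was below SPRY2 in DMSO and above it in both JG231 libraries, by 0.32 and 0.28, which is less than the scatter of 1.10 and 0.80. Other neighbours within the scatter were DUSP6, DUSP5 and DUSP4 at 2.5 μM, and at 5 μM DUSP16 with DUSP6, DUSP4 with DUSP5 and DUSP5 with SPRY4.

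Among the inducible nuclear phosphatases, DUSP1, an immediate early gene product that acts on p38, JNK and ERK, showed the greatest change at 5 μM, while at 2.5 μM it was close to DUSP5. DUSP1 (ENSG00000120129, chr5:172768096-172771195) was at 5.48 FPKM with DMSO, 37.3 with 2.5 μM and 44.1 with 5 μM JG231. The JG231 libraries were thus close to each other and far above DMSO, with log2 changes of 2.74 and 2.99. About 177, 1529 and 2136 fragments lay behind these values, which gives the log2 ratio without pseudocount a 95% counting interval of 2.54 to 3.00 at 2.5 μM and of 2.79 to 3.24 at 5 μM. Such exact Poisson intervals cover counting error only, since PCR copies of a molecule are not independent, and the fragments are approximate for genes with several transcripts. Of all genes tested, 3.18% had a greater increase than DUSP1 at 2.5 μM and 2.81% at 5 μM. The difference of 0.24 between the doses was less than the scatter of 0.27, and with changes centred on the median gene it was level with it.

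DUSP5, a nuclear phosphatase selective for ERK, started low. DUSP5 (ENSG00000138166, chr10:110497907-110511533) was at 0.50 FPKM with DMSO, 3.79 with 2.5 μM and 2.67 with 5 μM JG231. It rose at both doses, by 2.70 and 2.21 on the log2 scale, and the DMSO value stands on about 20.4 fragments. The counting interval of its log2 ratio was wide for that reason, 2.29 to 3.69 at 2.5 μM and 1.77 to 3.20 at 5 μM, and with a pseudocount of 1 the changes were 1.68 and 1.29. Which of DUSP5 and DUSP1 changed more at 2.5 μM depended on the setting, since with a pseudocount of 0.01 DUSP5 was at 2.90 and DUSP1 at 2.76, and with the length trend removed they were at 2.55 and 2.53. DUSP4 (ENSG00000120875, chr8:29333064-29350684), a nuclear phosphatase of ERK and JNK, was at 1.95 FPKM with DMSO, 3.64 with 2.5 μM and 3.23 with 5 μM JG231. It rose by 0.86 and 0.70, under 2-fold, the latter being 0.33 after rescaling without mitochondrial and small RNA genes, and 15.8% and 22.0% of all genes had greater increases. DUSP2, the remaining nuclear inducible member of the family and not among the 10 genes, was at 3.99, 11.8 and 14.2 FPKM in the same order. Its changes of 1.54 and 1.80 were between those of DUSP4 and DUSP1.

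DUSP6, a cytoplasmic phosphatase selective for ERK and a widely used readout of ERK activity, changed less. DUSP6 (ENSG00000139318, chr12:89347235-89352501) was at 3.07 FPKM with DMSO, 4.26 with 2.5 μM and 6.32 with 5 μM JG231. Its level was higher at the higher dose, with log2 changes of 0.46 and 1.02. The difference of 0.56 between the doses exceeded the scatter of 0.45, but with libraries rescaled to the same sum of FPKM it was 0.38, within the scatter. Rescaling without mitochondrial and small RNA genes left 0.17 at 2.5 μM, within the threshold of 0.25, and 0.64 at 5 μM. The other cytoplasmic ERK phosphatases, DUSP7 and DUSP9, did not follow it. DUSP7 was at 2.42 FPKM with DMSO, 1.95 with 2.5 μM and 1.47 with 5 μM JG231, and fell by 0.30 and 0.68. The change at 2.5 μM was within the threshold with a pseudocount of 1, at -0.22, and likewise when centred on the median gene, whereas rescaling without mitochondrial and small RNA genes gave -0.58 and -1.03. DUSP9 was at 1.32, 0.83 and 1.47 FPKM, with log2 changes of -0.61 and 0.14. The latter was within the threshold, with a counting interval of -0.33 to 0.64. It was -0.21 after rescaling without mitochondrial and small RNA genes and -0.07 with the length trend removed. Centred on the median gene it was 0.251, just past the threshold, so no direction is given for DUSP9 at 5 μM.

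The phosphatases that prefer JNK and p38 were the most abundant class in DMSO. DUSP8 (ENSG00000184545, chr11:1554051-1572271) was at 9.61 FPKM with DMSO, 46.1 with 2.5 μM and 42.6 with 5 μM JG231. It rose by 2.25 and 2.13, and with about 767 fragments in DMSO its counting intervals were narrow, 2.15 to 2.37 at 2.5 μM and 2.04 to 2.26 at 5 μM. Of all genes tested, 3.85% and 4.28% had greater increases. DUSP10 (ENSG00000143507, chr1:221701424-221742089) was at 10.6 FPKM with DMSO, 22.9 with 2.5 μM and 28.5 with 5 μM JG231. It rose by 1.11 and 1.42, and the step of 0.32 between the doses was above the scatter of 0.27. It was within the scatter, at 0.14, with the same sum of FPKM and, at 0.23, after rescaling without mitochondrial and small RNA genes, so no difference between the doses is given for DUSP10. DUSP16 (ENSG00000111266, chr12:12473282-12562863), which carries JNK-binding and nuclear export signals, was at 5.17 FPKM with DMSO, 7.52 with 2.5 μM and 6.43 with 5 μM JG231. Its increases were 0.53 and 0.31, the latter the smallest of the 9 at that dose, and 25.6% and 34.3% of all genes had greater ones. Rescaling without mitochondrial and small RNA genes turned the change of DUSP16 to -0.06 at 5 μM and left 0.24 at 2.5 μM, and with the same sum of FPKM the change at 5 μM was 0.18, within the threshold. With the length trend removed, by contrast, its changes were 0.73 and 0.68.

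The makeup of the phosphatase pool was described by summing FPKM over DUSP1, DUSP2, DUSP4, DUSP5, DUSP6, DUSP7, DUSP8, DUSP9, DUSP10 and DUSP16. The sum was 44.1 FPKM with DMSO, 140.1 with 2.5 μM and 150.9 with 5 μM JG231, ratios of 3.18 and 3.42, or 2.59 and 2.63 after rescaling without mitochondrial and small RNA genes. The nuclear inducible genes made up 27.0% of the sum in DMSO, 40.3% at 2.5 μM and 42.5% at 5 μM, and these shares do not depend on the scaling of a library. DUSP1 alone went from 12.4% to 26.6% and 29.2%. The share of the cytoplasmic ERK phosphatases was 15.5% in DMSO, 5.02% at 2.5 μM and 6.13% at 5 μM. Their summed level was 6.82, 7.04 and 9.26 FPKM, ratios of 1.03 at 2.5 μM and 1.36 at 5 μM that were 0.84 and 1.04 after the same rescaling. The JNK and p38 phosphatases held 57.5%, 54.6% and 51.4%, and within that class DUSP8 went from 21.8% of the pool to 32.9% and 28.2%, while DUSP16 went from 11.7% to 5.37% and 4.26%. These are transcript levels, and neither protein nor phosphatase activity was measured here.

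**Figure D2:**
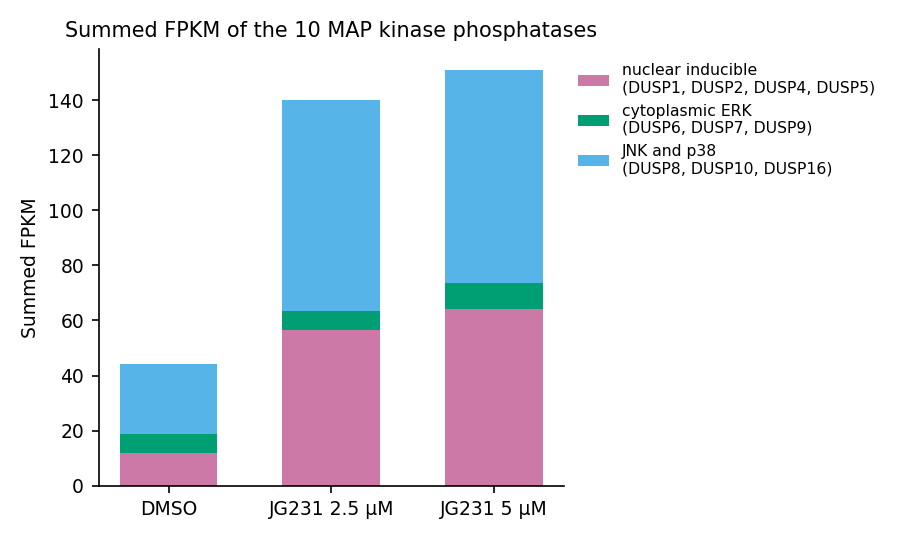
Summed FPKM of the 10 MAP kinase phosphatases in each library, with bars from 0 split into nuclear inducible (pink), cytoplasmic ERK (green) and JNK and p38 (blue) enzymes, 1 library per bar. The total is 44.1 FPKM with DMSO, 140.1 with 2.5 μM and 150.9 with 5 μM JG231, and the green segment is the thinnest in each bar.

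SPRY2 and SPRY4 were low in H660 cells and higher with JG231, while SPRY1 and SPRY3 did not pass the filter at either dose. SPRY4 (ENSG00000187678, chr5:142310427-142326455), which limits RAS activation below growth factor receptors, was at 0.21 FPKM with DMSO, 1.38 with 2.5 μM and 1.99 with 5 μM JG231. It rose by 2.26 and 2.76, from about 22.0 fragments in DMSO to 184 and 314, with counting intervals of 2.08 to 3.43 and 2.63 to 3.95 for the log2 ratio. SPRY2 (ENSG00000136158, chr13:80335976-80341126), which binds the adaptor GRB2 and the ubiquitin ligase CBL, was at 0.37 FPKM with DMSO, 1.10 with 2.5 μM and 1.64 with 5 μM JG231. It rose by 1.36 and 1.90, and its intervals of 0.84 to 2.39 and 1.46 to 2.94 rest on about 19.0 fragments in DMSO. With a pseudocount of 1 the SPRY2 changes were 0.62 and 0.95 and the SPRY4 changes 0.98 and 1.31. SPRY1, outside the 10 genes, was at 0.11, 0.77 and 0.89 FPKM in the same order, under the filter in every library. SPRY3 was at 0.29 FPKM in DMSO and listed at 0 in both JG231 libraries, as were 392 genes with at least 20 fragments in DMSO, so no fold was given.

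SPRED1 (ENSG00000166068, chr15:38252836-38357249), which brings neurofibromin to the plasma membrane to switch off RAS, was at 0.038 FPKM in DMSO and listed at 0 at 2.5 μM and at 5 μM. The DMSO value corresponds to about 4.69 fragments, so no change could be measured at this depth. SPRED2 was the expressed SPRED gene in H660, at 4.38 FPKM with DMSO, 5.73 with 2.5 μM and 3.92 with 5 μM JG231. Its log2 changes of 0.38 and -0.16 had opposite signs, and the change at 5 μM did not pass the threshold. After rescaling without mitochondrial and small RNA genes they were 0.10 and -0.53. SPRED3 stayed under 1 FPKM, at 0.33, 0.19 and 0.52. Summed over SPRED1, SPRED2 and SPRED3 the level was 4.74 FPKM with DMSO, 5.93 with 2.5 μM and 4.44 with 5 μM JG231, whereas the sum over the Sprouty genes SPRY1, SPRY2, SPRY3 and SPRY4 was 0.98, 3.24 and 4.53 FPKM. The ratio of the SPRED sums to DMSO was 1.25 and 0.94, or 1.02 and 0.72 after rescaling without mitochondrial and small RNA genes, and that of the Sprouty sums 3.32 and 4.64, or 2.71 and 3.56.

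**Figure D3:**
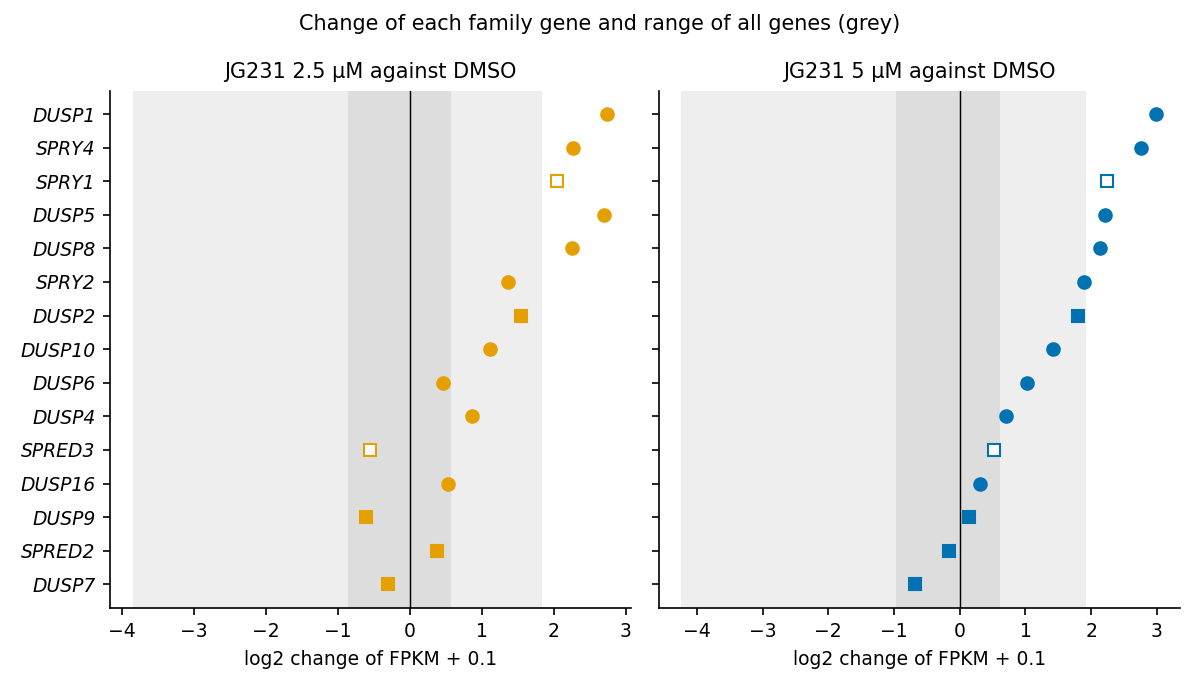
Log2 change of FPKM plus 0.1 against DMSO at 2.5 μM (left, orange) and 5 μM (right, blue) for the 10 genes (circles) and their relatives (squares), without SPRED1 and SPRY3, which were listed at 0 with JG231. Open symbols did not pass 1 FPKM, and pale and darker grey show the ranges that hold the central 90% and 50% of all genes tested; DUSP1, DUSP5, DUSP8 and SPRY4 lie to the right of the grey at both doses, as do the open symbols of SPRY1.

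Reads of related or overlapping genes could enter these values. The labels name stranded libraries, but the sources do not state whether counting used the strand. No stretch of 100 bases of the annotated transcripts of any of the 10 genes was shared with another of 38 DUSP, SPRY or SPRED genes and pseudogenes. The pseudogene row DUSP8P5 was at 3.22 FPKM with DMSO, 0.76 with 2.5 μM and 3.46 with 5 μM JG231. DUSP8P4 was at 0.46 FPKM and DUSP5P1 at 0.33 in DMSO and at 0 with JG231, while DUSP5P2 and DUSP8P3 were listed at 0 throughout. KRTAP5-AS1, on the strand opposite DUSP8, was at 1.70 FPKM with DMSO, 2.33 with 2.5 μM and 0.52 with 5 μM JG231. Its part in the DUSP8 values, and that of the pseudogene rows, was not tested. The lncRNA opposite DUSP16, AC007619.1, was at 2.11 FPKM with DMSO, 0.71 with 2.5 μM and 0 with 5 μM JG231, and its part in the DUSP16 values was not tested. AC022217.3, opposite DUSP1, was at 0.22 FPKM and AC024909.2, opposite DUSP6, at 0.11 in DMSO, and both were at 0 with JG231. SPRY4-AS1 was at 0.22 FPKM at 2.5 μM and at 0 otherwise. A small RNA row opposite SPRY4, RF02038, was at 2.70 FPKM at 2.5 μM only, while RF02039 beside it was listed at 0 throughout. The part of these rows in the SPRY4 value at 2.5 μM was not tested.

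The genes with the pattern most like that of DUSP1 were sought among 7051 protein-coding genes with a mean of at least 5 FPKM, by distance in the plane of the changes at both doses, which rests on 3 libraries. They were LARP6, an RNA-binding protein of collagen mRNAs, at 1.91 FPKM with DMSO, 13.8 with 2.5 μM and 16.7 with 5 μM JG231. MRPL54, a mitochondrial ribosomal protein, was at 14.1, 92.1 and 106.6 FPKM in the same order. KLF6, a zinc finger transcription factor, was at 3.44, 23.5 and 26.0 FPKM. Their distances from DUSP1 were 0.09, 0.09 and 0.10 on the log2 scale.

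Lists of genes that stand around these inhibitors were examined next, with the median change of all genes tested at -0.08 for 2.5 μM and -0.11 for 5 μM. Among genes above 1 FPKM in DMSO, the filter chosen after seeing the data, the 6 of the 10 genes that passed had median changes of 0.99 for 2.5 μM and 1.22 for 5 μM, beside -0.16 and -0.20 for all genes. In the lists that follow, a gene over 1 FPKM in DMSO alone could be counted only as lower, which applied to EGF, IL17RD and DUSP19 at both doses and to DUSP13 at 5 μM, and a gene over 1 FPKM with JG231 alone only as higher, which applied to NRG1 and DUSP15 at 2.5 μM. Of 15 growth factor ligands, 5 of the 7 that passed the filter were higher and 2 lower at 2.5 μM, and 3 of 6 were higher and 1 lower at 5 μM. The medians were 0.89 and 0.30, the former 0.52 with a pseudocount of 1 and the latter -0.06 after rescaling without mitochondrial and small RNA genes. The median at 5 μM was 0.57 with over 1 FPKM in the JG231 library as the filter, chosen after seeing the data, beside 0.13 for all such genes. By that filter 3 of 5 ligands were higher and 0 lower, beside 33.0% of all such genes that were lower. The filter drops EGF, the ligand counted as lower, so the 0 follows from its choice. AREG, a ligand of the EGF receptor, was at 2.19 FPKM with DMSO, 29.5 with 2.5 μM and 28.1 with 5 μM JG231. Its log2 changes of 3.69 and 3.62 exceeded those of DUSP1. VEGFA, the angiogenic factor, was at 16.7, 71.2 and 53.8 FPKM and rose by 2.08 and 1.68, and FGF9 rose by 1.26 and 0.57.

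Most receptor tyrosine kinases were lower with JG231. Of the 12 of 16 that passed the filter, 11 fell and 1 rose at 2.5 μM, and 11 fell and 0 rose at 5 μM, with medians of -0.91 and -1.16. The other settings gave medians between -0.57 and -1.17 for 2.5 μM and between -0.66 and -1.49 for 5 μM. FGFR1, FGFR3, FGFR4 and MET were over 1 FPKM in DMSO alone and could be counted only as lower. Among the 8 receptors over 1 FPKM in the JG231 library, a filter chosen after seeing the data, 7 fell and 1 rose at 2.5 μM and 8 fell at 5 μM, beside 32.0% and 33.0% of all such genes that were lower. KIT, the stem cell factor receptor, was at 24.1 FPKM with DMSO, 6.46 with 2.5 μM and 4.22 with 5 μM JG231. RET, the receptor of the GDNF family, was at 26.4, 7.32 and 4.85 FPKM. ERBB3, a receptor of neuregulins, was at 35.7, 10.3 and 11.1 FPKM. These 3 receptors were the most changed of the list at 5 μM, at -2.49, -2.42 and -1.68, while SPRY2 and SPRY4, which act just below such receptors, rose.

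The cascade from RAS to ERK was mixed. Of its 18 genes, 10 rose and 4 fell at 2.5 μM, and 8 rose and 4 fell at 5 μM. The medians of 0.32 and 0.18 were 0.03 and -0.19 after rescaling without mitochondrial and small RNA genes, so no direction is given. ARAF, a RAF kinase, was at 15.0 FPKM with DMSO, 50.5 with 2.5 μM and 54.4 with 5 μM JG231. MAP2K2, a kinase of ERK, was at 20.1, 37.9 and 50.4 FPKM, and HRAS at 25.7, 56.9 and 61.4. The cascades to JNK, p38 and ERK5, the kinases that DUSP8, DUSP10 and DUSP16 in part act on, gave 8 higher and 3 lower of 18 at 2.5 μM and 6 higher and 5 lower at 5 μM. Their medians of 0.22 and 0.10 were -0.07 and -0.27 after that rescaling. MAP2K3, a kinase of p38, was at 3.83, 9.28 and 11.0 FPKM, MAP2K5, the kinase of ERK5, rose by 1.26 and 0.96, and MAP3K6 fell by 0.81 and 1.10.

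Other inhibitors between receptor and ERK were mixed, while most further phosphatases of MAP kinases that passed the filter were higher. Of 8 further feedback inhibitors between receptor and ERK, 2 rose and 5 fell at each dose, with medians of -0.66 and -0.75, the latter -0.39 with the length trend removed. ERRFI1, which binds and inhibits the EGF receptor, was at 13.0 FPKM with DMSO, 40.2 with 2.5 μM and 36.8 with 5 μM JG231. IL17RD, an inhibitor of FGF receptor signalling, was at 1.39, 0.36 and 0.26 FPKM. ERRFI1 thus rose with the Sprouty genes by 1.62 and 1.50, whereas IL17RD and the RAS GTPase activator RASA1 fell, the latter by 0.63 and 0.98. Of 5 further phosphatases of MAP kinases that passed the filter, of 8, 5 rose at 2.5 μM and 4 rose and 1 fell at 5 μM, where the median was 0.85, or 0.47 after rescaling without mitochondrial and small RNA genes. They included PPM1D, which acts on p38, at 6.85, 15.8 and 16.9 FPKM, and the catalytic subunits of PP2A, PPP2CB and PPP2CA, with changes at 5 μM of 1.01 and 0.85.

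The atypical dual-specificity phosphatases, which lack the kinase-binding domain of the MAP kinase phosphatases, were mixed. Of the 15, 7 of 11 that passed the filter were higher and 3 lower at 2.5 μM, and 5 of 10 were higher and 2 lower at 5 μM, with medians of 0.54 and 0.22, the former 0.19 with the length trend removed and the latter -0.15 after rescaling without mitochondrial and small RNA genes. With over 1 FPKM in the JG231 library as the filter, chosen after seeing the data, the median at 5 μM was 0.59, beside 0.13 for all such genes. Of the 8 genes that passed it, 5 were higher and 0 lower, beside 33.0% of all such genes that were lower. That filter drops DUSP13 and DUSP19, the genes counted as lower, so the 0 follows from its choice. DUSP12 was at 16.0 FPKM with DMSO, 37.7 with 2.5 μM and 59.0 with 5 μM JG231. DUSP14 was at 4.20, 13.5 and 11.9 FPKM and rose. DUSP13 was at 2.49, 1.13 and 0.53 FPKM and fell. Several genes of this list therefore rose as DUSP10 did, and others fell.

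Transcripts known to follow ERK activity were mostly too low to be read. Of 10, 3 passed the filter, of which 2 rose and 1 fell at each dose. EGR1, an immediate early transcription factor, was at 1.86 FPKM with DMSO, 3.02 with 2.5 μM and 2.95 with 5 μM JG231. PHLDA1 was at 2.13, 5.86 and 3.26 FPKM, and EPHA2 at 2.69, 2.12 and 2.18. The EGR1 changes of 0.67 and 0.64 were near those of DUSP4 and below those of DUSP1. Among 4 proteins that bind AU-rich elements, which govern the decay of many short-lived mRNAs, 3 rose at each dose. ZFP36L2 was at 14.6 FPKM with DMSO, 35.1 with 2.5 μM and 41.7 with 5 μM JG231, ZFP36L1 rose by 1.68 and 1.08, and ELAVL1 by 0.46 and 0.55.

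**Figure D4:**
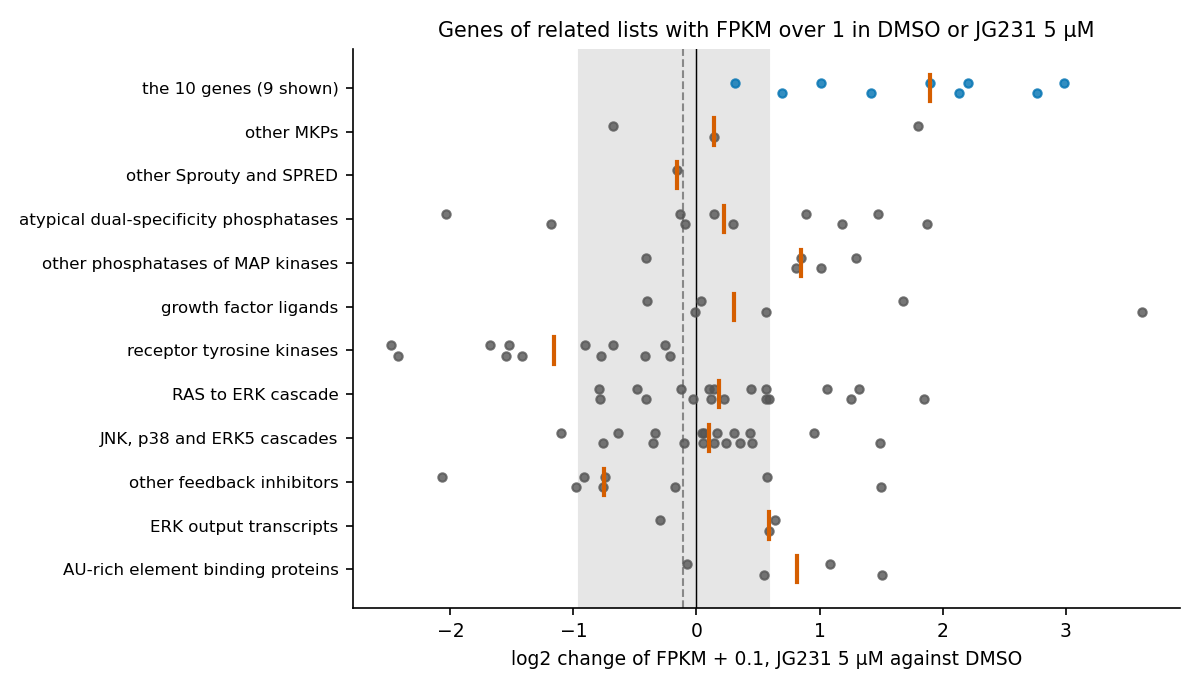
Log2 change of FPKM plus 0.1 at 5 μM against DMSO for genes of each list with over 1 FPKM in either of these libraries (1 point per gene, 1 library per condition), with list medians as orange bars, the median of all genes tested as a dashed line and their central 50% in grey. The receptor tyrosine kinases have a median of -1.16, and the top line one of 1.90 over 9 genes, of which DUSP5, SPRY2 and SPRY4 passed only through the JG231 library, or of 1.22 over the 6 genes above 1 FPKM in DMSO.

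The increases of single genes were compared over 6 other settings of the pseudocount, the scaling and a correction for transcript length. The change of DUSP1 lay between 2.45 and 2.82 for 2.5 μM and between 2.61 and 3.10 for 5 μM, and that of DUSP8 between 1.96 and 2.34 and between 1.76 and 2.32. DUSP10 lay between 0.82 and 1.19 for 2.5 μM, so its 2-fold call at that dose was lost under some settings, and between 1.04 and 1.53 for 5 μM. The 2-fold call of DUSP6 at 5 μM was lost in the same way, with a lowest value of 0.64. SPRY2 lost its 2-fold call at both doses, with lowest values of 0.62 and 0.95, and SPRY4 at 2.5 μM, with 0.98, all with a pseudocount of 1. DUSP5 and the Sprouty genes had the widest ranges. DUSP16 at 5 μM was the single case of a sign change, among the 9 genes and these 6 settings.

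**Figure D5:**
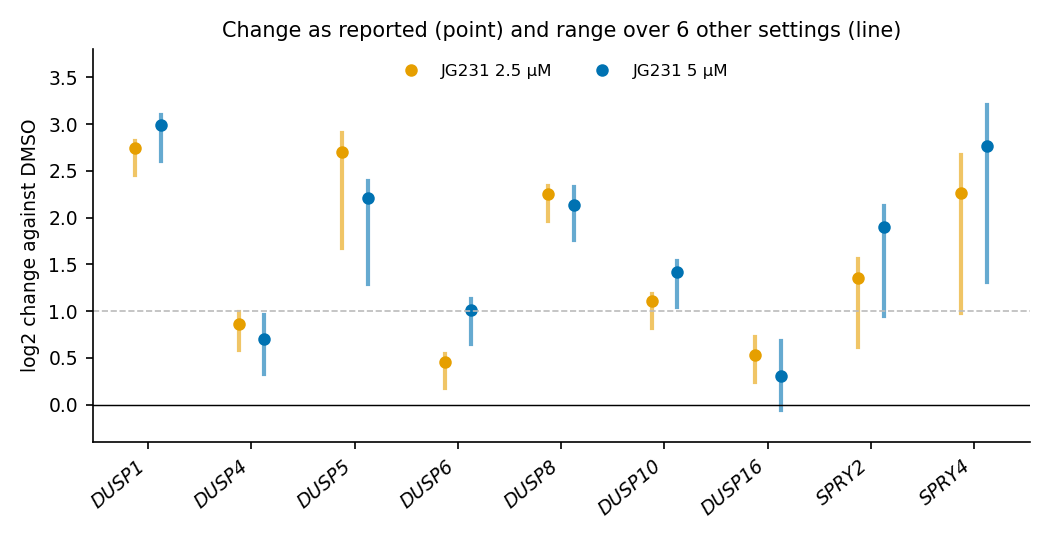
Log2 change against DMSO of the 9 genes with a measurable change, as reported (points) and over 6 other settings of pseudocount, scaling and length correction (lines, from lowest to highest), at 2.5 μM (orange) and 5 μM (blue), with a dashed line at 1. The lines of DUSP1, DUSP5 and DUSP8 stay above 1 at both doses and those of DUSP10 and SPRY4 at 5 μM, and that of DUSP16 at 5 μM crosses 0.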

How the data were processed

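According to the study's methods, reads were aligned with HISAT and quantified with StringTie; the submitters' processing notes name HISAT2, featureCounts and GRCh38, without versions. The authors deposited 1 gene-level FPKM value per library, which is corrected for gene length and library size. Input amounts differ between the methods and the labels. Members and lists were chosen with earlier results of these data known.

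Of 58735 gene identifiers, 58207 were found in GENCODE release 44. The annotation release used by the authors is not stated, so fragments computed with exon lengths of release 44 are approximate. Changes used a pseudocount of 0.1, and no count model or p-value was computed. FPKM multiplied by merged exon length fell within 0.1 of a whole fragment for 90.5% of 4729 single-transcript genes with under 50 fragments in DMSO, 88.2% of 3252 at 2.5 μM and 86.7% of 2026 at 5 μM. Named genes were all members, their relatives, markers, pseudogene and antisense rows by symbol, the 3 genes nearest to DUSP1, and up to 3 genes per list ranked by the size of the 5 μM change, with equal signs at the doses. Other rows overlapping a member, and genes over 1 FPKM on only one side of a comparison, were added after the values were seen. Some marker genes are not reported here. Alternatives were pseudocounts of 1 and 0.01, other scalings and filters, and removal of the length trend by lowess (fraction 0.3). Scripts were tested on simulated data. Software was matplotlib 3.10.9, statsmodels 0.14.6, scipy 1.17.1, pandas 2.3.3 and numpy 2.4.6, run under Python 3.11.15.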

Additional observations from a re-analysis of the deposited data

Results flagged for a closer look

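3 relatives of the 10 genes lay on opposite sides of DMSO at the doses, and without replicates the difference between the doses was not tested for any of them. DUSP9 had a log2 change of -0.61 at 2.5 μM and of 0.14 at 5 μM, but the latter was within the 0.25 threshold and was -0.21 after rescaling without mitochondrial and small RNA genes, below DMSO at both doses. Centred on the median gene, the change of DUSP9 at 5 μM was 0.251, just past the threshold. The step between its doses was 0.75, within the scatter of 1.14 between the JG231 libraries. Without pseudocount the step was 0.82, with a counting interval of 0.30 to 1.35 that leaves out 0 but covers counting error only. SPRED2 had a log2 change of 0.38 at 2.5 μM and of -0.16 at 5 μM, the latter within the same threshold. After that rescaling they were 0.10 and -0.53, so that the former was within the threshold and the latter beyond it. The step between the doses of SPRED2 was -0.54, beyond the scatter of 0.43, and it was beyond it under the 6 other settings too. SPRED3, under 1 FPKM in every library, had a log2 change of -0.55 at 2.5 μM, with a counting interval of -1.62 to 0.05 that includes 0, and of 0.53 at 5 μM, with an interval of 0.03 to 1.31, which was 0.21 after that rescaling. With a pseudocount of 1 its changes were -0.16 and 0.19, within the threshold.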

How the results depend on the processing

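With a mean of at least 5 FPKM as the filter, which DUSP1, DUSP8, DUSP10 and DUSP16 passed, 4 of 4 genes were higher by the 0.25 rule at each dose, beside 48.0% and 48.8% of all genes, and 3 of 4 at least 2-fold, beside 13.7% and 16.3%. Without a filter, 1 gene was counted as lower at each dose by the 0.25 rule, SPRED1, which is listed at 0 with JG231, beside 19.9% and 20.8% of all genes. With over 1 FPKM in DMSO as the filter, chosen after seeing the data, 3 genes were at least 2-fold higher at 2.5 μM and 4 at 5 μM. Rescaling without mitochondrial and small RNA genes turned DUSP16 at 5 μM to -0.063 and the median of growth factor ligands at 5 μM to -0.061; the cause was not tested. Over the counts, the changes of the genes other than SPRED1 and the list medians, 220 values stayed near the one reported, 123 moved further, and the 2 just named changed sign from beyond 0.25. Near means within 1.5 times for a count, within a shift of 0.1 for a median and, for a gene, by less than the mean arm of its counting interval, so that a call could still be lost, as for DUSP16 at 5 μM with the same sum of FPKM, at 0.18. Of the values that moved, 7 list medians that were within 0.25 also changed sign, 5 of them under this rescaling. For the relatives, tried under the same settings after seeing the data, DUSP9 at 5 μM went to -0.21 under that rescaling. With over 1 FPKM in the JG231 library as the filter, also chosen after seeing the data, the median of DUSP2, DUSP7 and DUSP9 at 2.5 μM went from -0.30 to 0.62, since DUSP9 did not pass. No paired analysis was possible because each condition had 1 library. Depth limits DUSP5, SPRY2, SPRY4 and SPRED1, which had at most 22.0 fragments in DMSO. No second DMSO library was measured, so every change compares libraries and not conditions.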
